A study of Mus musculus with 2 samples.

Results

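The genes described here are the kinesin heavy and light chains of the mouse outside the kinesin-3 family, Kif14 and Kif11. They were taken by symbol (Kif followed by a number and optional letters, or Klc followed by 1 digit), leaving out Kif13b, Kif13a, Kif16b, Kif1a, Kif1b, Kif1c, Kif14 and Kif11, which gave 36 of the 33696 features in the count files. Of the 36, 35 are motors or light chains. The remaining feature, Kif16bos, is an RNA on the strand opposite Kif16b and was matched through its symbol alone. All 36 gene identifiers were found in GENCODE M21, and 33 members had 20 or more UMIs (unique molecular identifiers, 1 per captured transcript) over both libraries.

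The study profiled dissociated mouse aorta by droplet-based 3' single-cell RNA sequencing. There was 1 wild-type library, labelled WT, and 1 library titled Kif13b-/-, whose genotype field reads Kif13b knock down. Strain, age, sex, diet, the number of animals behind each library and the deleted part of Kif13b are not given in the sources used here. The title of the series names macrophages, the receptor MERTK and the clearance of dying cells in atherosclerosis.

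Kinesins are motor proteins that use ATP to move along or reshape microtubules. Kinesin-1, a pair of heavy chains (Kif5a, Kif5b, Kif5c) usually with a pair of light chains (Klc1 to Klc4), carries vesicles, organelles and mRNA. Kinesin-2 carries cargo in the cytoplasm and the building material of primary cilia. Other families build the mitotic spindle, align chromosomes and complete cell division, so their transcripts are mostly made by dividing cells. A further group tunes microtubule growth at the cell edge (Kif21a, Kif21b), shortens microtubules (Kif2a) or lacks motor activity altogether (Kif26a, Kif26b). In the vessel wall, kinesin-1 is the general carrier in every cell type, while the mitotic motors follow proliferation.

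With 1 library per genotype there is no test across animals. All 95% intervals are exact and cover counting error only. Levels are UMIs per 1000000 UMIs (CPM) of the class. 3' counting registers each transcript once, so levels were not divided by gene length. Clusters were made without kinesin genes and named from marker genes, and their barcodes may hold free RNA of other cells. After filters, 16686 WT and 6887 Kif13b-/- barcodes were kept, with median depths of 2385 and 5760 UMIs, out of 21126 and 7766 deposited, more than the 6000 cells loaded for each. The libraries shared 52 barcode sequences, 38 of them among the kept barcodes. Smooth muscle-like, endothelial-like, fibroblast-like and macrophage-like classes were all present, as the tissue label implies. Clusters 11 (led by Col2a1 and Chad) and 8 (led by Col10a1 and Alpl), which carry cartilage and bone genes, held 6.26% and 7.84% of WT but 2.27% and 1.61% of Kif13b-/- barcodes. Cluster 34, led by Ighg2b and mitochondrial genes, held 5 WT and 1289 Kif13b-/- barcodes and is in effect part of 1 library. The targeted gene Kif13b stood at 70.5 CPM in the WT and 43.8 CPM in the Kif13b-/- library. Since 3' counts may lie outside the deleted part, this checks nothing about the genotype.

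In sum the 36 members reached 534 CPM with 43777 UMIs in WT barcodes, and 478 CPM with 28582 UMIs in Kif13b-/- barcodes. The 11 transport members (kinesin-1 and kinesin-2) made up 69.2% and 70.8% of these UMIs. The 10 mitotic members made up 5.55% and 4.82%, the 7 ciliary members 3.38% and 3.54%, and the 7 other members 21.9% and 20.8%. The repertoire was thus dominated by transport motors in both libraries, and above all by 1 gene. Kif5b, the broadly expressed kinesin-1 heavy chain, supplied 43.5% of member UMIs in the WT and 41.7% in the Kif13b-/- library. At the other end, Kif12 had 12 and 4 UMIs and Kif16bos 2 and 1. Kif2b had 0 UMIs in both libraries, which allows up to 0.0366 CPM in the WT and 0.0501 CPM in the Kif13b-/- library.

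**Figure D1:**
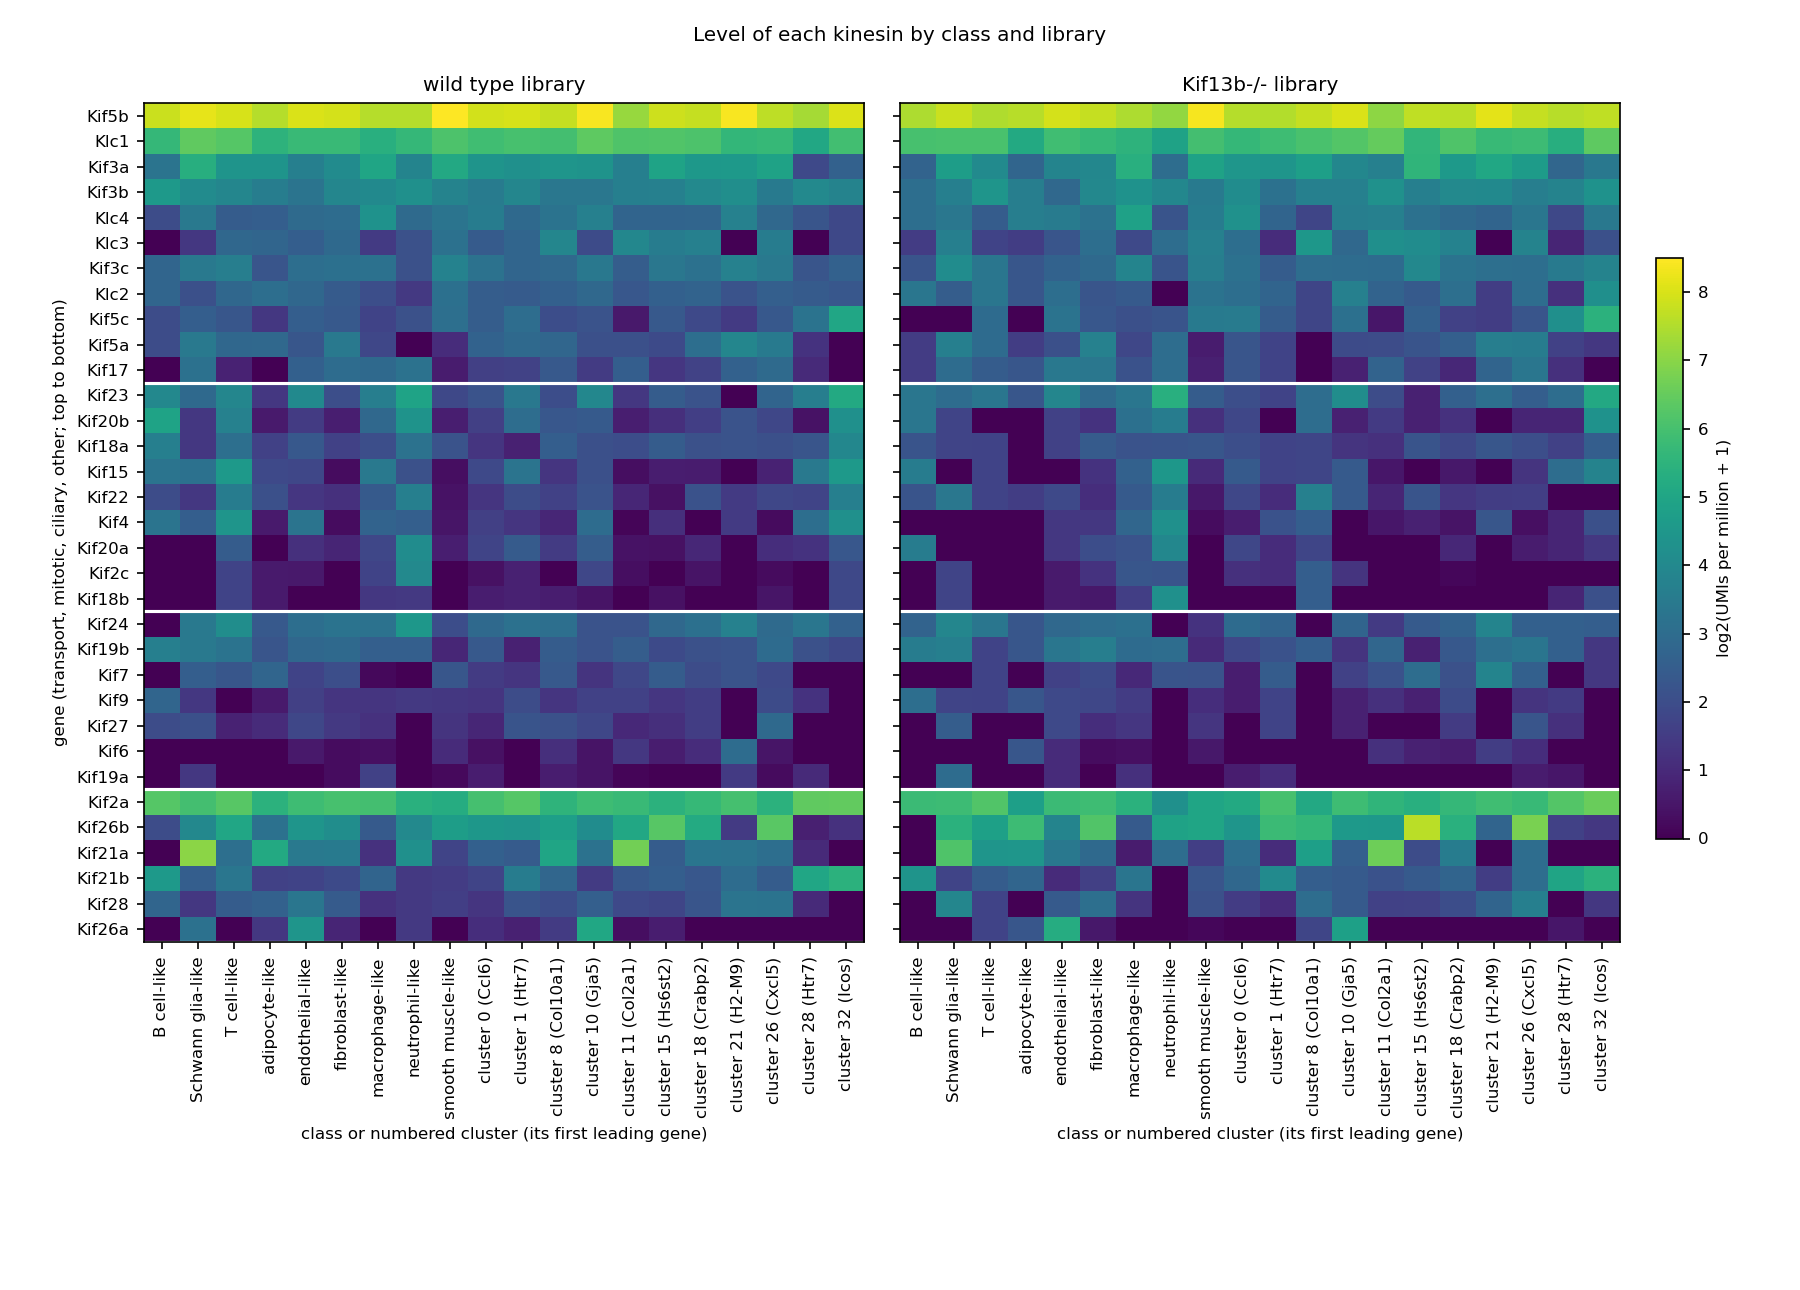
Colour shows the level of each kinesin with 20 or more UMIs as log2(CPM + 1), genes in rows by role and classes or clusters with at least 50 barcodes in both libraries in columns, WT on the left and Kif13b-/- on the right. Kif5b, Klc1 and Kif2a are bright in every column, whereas Kif21a, Kif26b, Kif26a, Kif21b and Kif5c are bright in a few.

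Among the kinesin-1 heavy chains, Kif5b (mm10 chromosome 18, 6201002 to 6242174, minus strand; GENCODE lists 7 transcripts with at most 26 exons) was present in all 20 classes and clusters compared. Its level was highest in smooth muscle-like barcodes, at 359 CPM (349 to 370) in the WT and 337 CPM (325 to 349) in the Kif13b-/- library. It was lowest in cluster 11, at 145 and 134 CPM. The spread across classes was thus within 3-fold. Macrophage-like barcodes held 187 and 173 CPM, below the medians over the 20 classes of 237 and 199 CPM. Kif5a (4.60 and 4.04 CPM) and Kif5c (4.12 and 5.53 CPM over all barcodes), the heavy chains best known from neurons, added only 1.91% and 1.71% of heavy chain UMIs in the WT library and 1.94% and 2.65% in the Kif13b-/- library.

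Kif5c was highest in 2 immune clusters. In cluster 32, led by Icos and holding Nkg7 and Gzma, Kif5c stood at 31.3 CPM (24 UMIs) in the WT and 43.5 CPM (27 UMIs) in the Kif13b-/- library, and made up 10.7% (6.95 to 15.5%) and 17.5% (11.9 to 24.5%) of heavy chain UMIs. In cluster 28, with Ccr7, Cd209a and Flt3, it stood at 8.40 CPM (25 UMIs) and 17.97 CPM (42 UMIs). Macrophage-like barcodes held only 2.27 and 3.22 CPM. The order of cluster 32 over cluster 28 was the same in both libraries, with counting intervals that did not overlap. Kif5a had no such site: its highest levels were 13.9 CPM in cluster 21 (8 UMIs) in the WT and 12.2 CPM in fibroblast-like barcodes (53 UMIs) in the Kif13b-/- library.

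Of the light chains, which couple kinesin-1 to cargo, Klc1 stood at 61.1 and 55.9 CPM over all barcodes and gave 74.1% of light chain UMIs in the WT and 66.9% in the Kif13b-/- library. Klc3 stood at 8.16 and 9.74 CPM, Klc4 at 8.06 and 11.7 CPM and Klc2 at 5.18 and 6.18 CPM. Klc4 differed in its distribution. It was highest in macrophage-like barcodes, at 19.1 CPM (143 UMIs) and 28.5 CPM (203 UMIs), where it made up 29.9% (25.8 to 34.2%) and 35.7% (31.7 to 39.8%) of light chain UMIs, against 9.77% and 14.1% over all barcodes. Klc3 was highest in the cartilage and bone gene clusters. It stood at 14.1 and 17.8 CPM in cluster 11 and 13.9 and 21.7 CPM in cluster 8, against 1.74 and 2.66 CPM in macrophage-like barcodes and 0 and 2 UMIs in cluster 28. Klc2 lay between 1.65 and 7.89 CPM in every WT class.

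Kif3a and Kif3b form the kinesin-2 motor that builds cilia, and Kif3c can replace Kif3b as the partner of Kif3a. Over all barcodes Kif3a (21.6 and 21.3 CPM) gave 50.9% and 49.4%, Kif3b (12.8 and 12.7 CPM) 30.2% and 29.5%, and Kif3c (7.99 and 9.11 CPM) 18.8% and 21.2% of the UMIs of the 3 genes. This order was kept in macrophage-like barcodes (Kif3a 56.8% and 55.7%). Cluster 28 departed from it. There Kif3a made up 12.5% (5.55 to 23.2%, 8 of 64 UMIs) in the WT and 20.6% (11.7 to 32.1%, 14 of 68 UMIs) in the Kif13b-/- library, with a level of 2.69 and 5.99 CPM, while Kif3b stood at 15.1 and 12.8 CPM. Kif3a in smooth muscle-like barcodes was 33.9 and 28.7 CPM for comparison. Kif17, a kinesin-2 that works as a homodimer, stood at 3.55 and 3.14 CPM over all barcodes and reached at most 8.27 CPM in the WT (neutrophil-like, 5 UMIs) and 9.59 CPM in the Kif13b-/- library (endothelial-like, 18 UMIs).

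Kif21a, Kif21b, Kif26a and Kif26b were far less evenly spread than Kif2a. Over all barcodes Kif21a stood at 23.1 and 9.34 CPM, Kif21b at 5.26 and 6.48 CPM, Kif26b at 28.9 and 35.8 CPM, Kif26a at 2.46 and 2.22 CPM and Kif2a at 53.4 and 42.1 CPM. Kif21a (chromosome 15, 90933276 to 91049948, minus strand; 7 transcripts of up to 37 exons) was highest in 2 classes. It stood at 130 CPM (103 to 161, 80 UMIs) in WT and 70.5 CPM (47.6 to 101, 30 UMIs) in Kif13b-/- Schwann or glia-like barcodes, and at 102 CPM (1262 UMIs) and 98.0 CPM (231 UMIs) in cluster 11. The intervals of these leading levels met within each library, so their order was not resolved. Adipocyte-like barcodes followed at 34.8 and 21.2 CPM and cluster 8 at 31.03 and 26.6 CPM. Macrophage-like barcodes held 1.34 and 0.561 CPM (10 and 4 UMIs), and cluster 32 held 0 UMIs in both libraries. Kif21b, its closest relative, had its highest levels elsewhere. Kif21b (chromosome 1, 136131389 to 136177998, plus strand) was highest in cluster 32 at 43.0 and 41.9 CPM and in cluster 28 at 31.9 and 30.4 CPM, and B cell-like barcodes followed at 23.3 and 20.1 CPM, while cluster 11 held 4.03 and 3.39 CPM.

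Kif26a and Kif26b, kinesin-11 members that bind microtubules without the usual motor activity, also differed in place. Kif26a (chromosome 12, 112146208 to 112181747, plus strand) was highest in endothelial gene contexts. It stood at 20.6 CPM (81 UMIs) and 37.3 CPM (70 UMIs) in endothelial-like barcodes and at 32.4 CPM (91 UMIs) and 27.7 CPM (39 UMIs) in cluster 10, led by Gja5, Sema3g and Bmx, genes of arterial endothelium. Within the endothelial-like class it was highest in cluster 24 (Gpihbp1, Car4, Cd300lg), at 43.8 CPM (39 UMIs) and 56.8 CPM (54 UMIs). Macrophage-like barcodes held 0 UMIs in both libraries, which allows up to 0.401 and 0.421 CPM, and smooth muscle-like barcodes held 0 and 1 UMI. Beyond the endothelial-like class and cluster 10, no class held more than 6 Kif26a UMIs in either library.

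Kif26b (chromosome 1, 178529125 to 178939200, plus strand; 3 transcripts of up to 15 exons) had another distribution. Its highest levels were in cluster 15, at 77.7 CPM (68.5 to 87.8, 257 UMIs) in the WT and 198 CPM (175 to 222, 273 UMIs) in the Kif13b-/- library, and in cluster 26, at 80.1 CPM (72.6 to 88.1, 418 UMIs) and 111 CPM (99.8 to 122, 386 UMIs). Their order was not resolved in the WT library, whereas cluster 15 led in the Kif13b-/- library. Cluster 15 was led by Hs6st2, Eln, Thbs1 and Thbs2, matrix genes, and Kif26b was itself among its 10 leading genes although it took no part in the clustering. Cluster 26 was led by Cxcl5, Brinp1 and Mme. Within smooth muscle-like barcodes the level depended on the cluster: 39.4 and 38.6 CPM in cluster 20 against 11.3 and 15.4 CPM in cluster 22. Macrophage-like barcodes of cluster 31 held 0.783 and 1.72 CPM (5 and 10 UMIs). The whole macrophage-like class, which also holds cluster 4, stood higher in both libraries. Kif2a, a microtubule depolymerase, was spread far more evenly, from 37.4 CPM in smooth muscle-like to 86.1 CPM in cluster 32 barcodes of the WT library.

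Ciliary motors were scarce everywhere. Kif24, which acts at centrioles, stood at 6.48 and 4.93 CPM over all barcodes, Kif19b at 4.11 and 4.98 CPM, Kif7, the Hedgehog pathway kinesin, at 2.63 and 2.76 CPM, Kif27 at 1.87 and 1.57 CPM and Kif9 at 1.78 and 1.82 CPM. Kif6 stood at 0.793 and 0.468 CPM and Kif19a at 0.390 and 0.401 CPM. Kif27 was highest in cluster 26 in the WT library, at 6.51 CPM (34 UMIs) against a median of 1.39 CPM over the 20 classes, and stood at 3.72 CPM (13 UMIs) there in the Kif13b-/- library. Kif7 had 1 UMI in WT and 7 UMIs in Kif13b-/- macrophage-like barcodes, against 48 and 31 UMIs in smooth muscle-like barcodes. Kif28, whose function is little known, stood at 3.46 and 3.41 CPM and was spread over most classes.

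The mitotic motors were next read against proliferation. Over all barcodes Kif23 stood at 7.32 and 6.92 CPM, Kif20b at 4.03 and 2.99, Kif18a at 3.95 and 2.71, Kif15 at 3.43 and 2.51, Kif4 at 3.42 and 1.87, Kif22 at 2.96 and 2.69, Kif20a at 2.61 and 1.57, Kif2c at 1.38 and 1.10 and Kif18b at 0.561 and 0.652 CPM. Among the 20 classes with at least 50 barcodes in both libraries, the mitotic sum was highest in cluster 32 (130 and 79.0 CPM) and in neutrophil-like barcodes (111 and 141 CPM), and it was 8.30 and 11.4 CPM in smooth muscle-like barcodes. The neutrophil-like sums rest on 67 and 39 UMIs. That class joined cluster 13 with cluster 23 (144 and 32 barcodes), whose leading genes include the cell cycle genes Ube2c and Cenpf. A barcode was marked when it held a UMI of at least 3 of 12 cell cycle genes, none of them a kinesin (Mki67, Top2a, Birc5, Cdk1 and others). This marked 417 WT barcodes (2.50%, 2.27 to 2.75%) and 186 Kif13b-/- barcodes (2.70%, 2.33 to 3.11%). Cluster 29, led by Cenpf, Hmmr and Ube2c and too small for the comparison of classes (157 and 24 barcodes), held 103 and 18 of them, and Kif23 stood at 128 and 109 CPM and Kif4 at 95.3 and 48.8 CPM there. Of neutrophil-like barcodes, 45 of 229 WT and 1 of 89 Kif13b-/- barcodes were marked, the latter with 41713 of the 276650 UMIs of its class. Marked barcodes as a whole were deeper than the rest, with medians of 4890 and 15310 UMIs, and 130 and 79 of them held exactly 3 markers. Summed mitotic motors stood at 341 CPM (323 to 359) in marked and 13.9 CPM (13.04 to 14.7) in other WT barcodes, a log2 ratio of 4.62 (4.50 to 4.74). In the Kif13b-/- library the sums were 181 CPM (168 to 195) and 12.5 CPM (11.6 to 13.4), a log2 ratio of 3.86 (3.71 to 4.01). Marked barcodes thus held 55.5% and 49.2% of all mitotic motor UMIs. Summed transport motors differed far less, at 334 against 371 CPM and 324 against 339 CPM. The mark depends on depth. With each barcode thinned to 1000 UMIs, the log2 ratios of the mitotic sum were 4.39 and 5.51, so the order of the 2 libraries turned over and is not read as a difference.

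**Figure D2:**
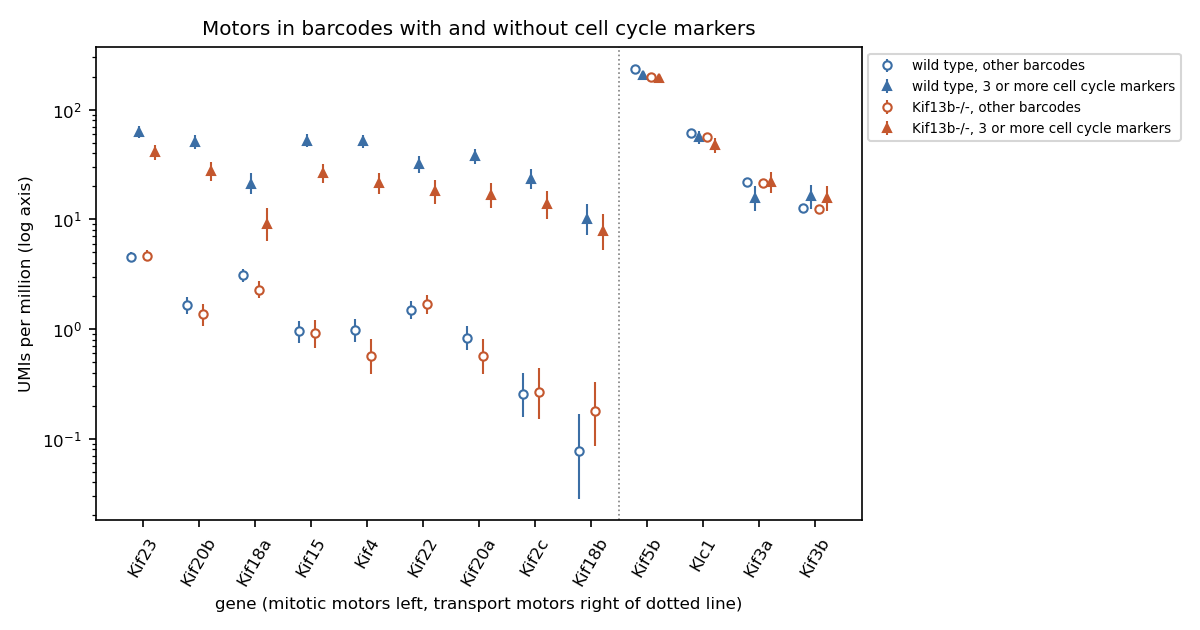
Each point is the level of 1 gene in CPM on a log axis, in barcodes with at least 3 cell cycle markers (filled triangles) and in all other barcodes (open circles), for the WT and Kif13b-/- libraries, with 95% counting intervals. The 9 mitotic motors lie well above their level in other barcodes, Kif18a by the smallest margin, and the 4 transport genes on the right do not.

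The mitotic members differed in how closely they kept to marked barcodes. Kif18b and Kif2c, which shorten microtubules in mitosis, were the most restricted. Kif18b stood at 10.1 against 0.0769 CPM in the WT and 7.76 against 0.178 CPM in the Kif13b-/- library, with 87.0% and 74.4% of its UMIs in marked barcodes. Kif2c had 82.3% and 77.3% of its UMIs there. Kif15, a spindle motor, had 73.7% and 66.0%, Kif4, a chromokinesin, 72.9% and 71.4%, and Kif20a, which works in cytokinesis, 69.6% and 66.0%. Kif20b held 60.9% and 57.5%, and Kif22 51.9% and 41.6%. Kif23, the motor of the central spindle, had 41.0% and 36.7%, and Kif18a the least, 25.9% and 20.99%. Kif18a stood at 21.2 against 3.08 CPM in the WT and 9.10 against 2.28 CPM in the Kif13b-/- library. Kif18a and Kif23 thus had the lowest shares and Kif18b and Kif2c the highest in both libraries. Outside the mitotic group, Kif24 was also higher in marked barcodes, with log2 ratios of 1.42 (1.00 to 1.79) and 1.37 (0.86 to 1.83). Kif4 and Kif22 have annotated processed pseudogenes (Kif4-ps and Kif22-ps), so the assignment of some of their UMIs is uncertain.

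The promoters of these motors are shown because many genes of the late cell cycle carry a TTTGAA element close to the start of transcription, often with CCAAT boxes nearby, which are known as sites of the MuvB complexes and of NF-Y. RefSeq start sites in the GRCm38.p6 build gave windows of 300 bases (250 before to 50 after the start) for 27 members, 9 of them mitotic. TTTGAA on either strand (TTCAAA on the other) was found in 7 of the 9 mitotic windows and in 0 of 8 transport windows, against 17.9% of all 32851 windows. CCAAT on either strand (ATTGG on the other) was found in 5 of 9 and 4 of 8, against 37.4% of all windows. The mitotic windows without TTTGAA were those of Kif18a, the motor least restricted to marked barcodes, and of the undetected Kif2b. Of the ciliary and other members with a window, 1 each also held TTTGAA, Kif27 and Kif26b. Only the first listed start of each gene was used, and other starts were not searched. The windows of Kif2c, Kif4, Kif17 and Kif27 lay wholly inside the gene as annotated in GENCODE. Among these, Kif2c, Kif4 and Kif27 are counted as holding TTTGAA. A match is a description of the letters and not of binding. The stretches printed here run from 120 bases before to 30 after the start, 5′ to 3′ on the strand of the gene, with both motifs, on either strand, in capitals.
Kif4: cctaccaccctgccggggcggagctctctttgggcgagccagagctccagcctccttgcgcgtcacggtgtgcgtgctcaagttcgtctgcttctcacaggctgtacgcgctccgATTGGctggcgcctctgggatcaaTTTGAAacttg
Kif18b: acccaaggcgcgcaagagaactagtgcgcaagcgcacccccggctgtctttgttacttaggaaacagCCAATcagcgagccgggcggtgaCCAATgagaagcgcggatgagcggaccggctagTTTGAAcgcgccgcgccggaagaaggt
Kif20b: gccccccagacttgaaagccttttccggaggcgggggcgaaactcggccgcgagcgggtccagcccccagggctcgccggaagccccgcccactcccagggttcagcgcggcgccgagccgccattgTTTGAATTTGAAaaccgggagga
Kif23: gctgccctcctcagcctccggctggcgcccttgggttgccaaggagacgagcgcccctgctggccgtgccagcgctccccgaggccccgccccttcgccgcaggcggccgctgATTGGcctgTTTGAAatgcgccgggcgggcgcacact
Kif18a: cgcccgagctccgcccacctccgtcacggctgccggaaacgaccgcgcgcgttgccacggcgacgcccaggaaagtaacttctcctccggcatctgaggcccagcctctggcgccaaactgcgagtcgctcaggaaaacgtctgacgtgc
These lie at chrX:100625945-100626094 (plus strand) for Kif4, chr11:102925095-102925244 (minus) for Kif18b, chr19:34922238-34922387 (plus) for Kif20b, chr9:61946770-61946919 (minus) for Kif23 and chr2:109280618-109280767 (plus) for Kif18a. Counted with the first transcribed base as 1, TTTGAA began at position 20 in Kif4, 4 in Kif18b, 3 in Kif23 and at 8 and 14 in Kif20b, where 2 copies lie side by side. The first base of the CCAAT or ATTGG match lay at -5 in Kif4, -53 and -30 in Kif18b and -7 in Kif23. In the windows not printed, the nearest TTTGAA or TTCAAA match began at -17 in Kif22, -19 in Kif15 and -103 in Kif2c.

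Between the genotypes, the kinesin repertoire was largely alike over all barcodes. These include cluster 34, with 5 WT and 1289 Kif13b-/- barcodes and 10862533 of the 59853601 Kif13b-/- UMIs. Its part in the ratios over all barcodes was not tested. Of the 33 members with 20 or more UMIs, 0 were at least 1.5-fold higher in the Kif13b-/- library (4.5% of all genes with 20 or more UMIs were) and 4 were at least 1.5-fold lower (8.19% of all genes). The 4 were Kif21a, Kif4, Kif20a and Kif6. Kif21a stood at 23.1 CPM (1890 UMIs) in the WT and 9.34 CPM (559 UMIs) in the Kif13b-/- library, a log2 ratio (Kif13b-/- to WT, as for all ratios that follow) of -1.30 (-1.44 to -1.17). Cluster 11 held 1262 of the 1890 WT and 231 of the 559 Kif13b-/- UMIs of Kif21a. Within it the ratio was -0.05 (101.8 against 98.0 CPM), and it held 6.26% of WT and 2.27% of Kif13b-/- barcodes. Kif21a was lower within some other classes, at -0.86 in Schwann or glia-like, -0.69 in fibroblast-like and -0.66 in adipocyte-like barcodes and -0.65 in cluster 10. The intervals in adipocyte-like barcodes and in cluster 10 included equal levels. It was not lower in every class, with 0.58 (-0.64 to 1.71, 17 and 12 UMIs) in cluster 0 and -0.17 (-1.27 to 0.68) in cluster 8. The part of the cluster shares in the lower Kif21a was not tested. Kif4 had a log2 ratio of -0.86 (-1.20 to -0.55), Kif20a of -0.73 (-1.10 to -0.38) and Kif6 of -0.75 (-1.46 to -0.10). The summed 12 cell cycle markers were lower beside the mitotic Kif4 and Kif20a, at 135 against 105 CPM, and their part in the lower Kif4 and Kif20a was not tested. The median log2 ratio was -0.13 over the 33 members and -0.05 over all genes with 20 or more UMIs.

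In macrophage-like barcodes (965 WT, 792 Kif13b-/-), 29 members had 20 or more UMIs. At a ratio of 1.5, 4 were higher in the Kif13b-/- library (7.95% of all genes were) and 3 were lower (6.31% of all genes). The higher members were Kif3c, Kif21b, Klc3 and Kif2c, and the lower ones Kif15, Kif17 and Kif19a. Kif3c, the alternative partner of Kif3a, stood at 8.02 CPM (60 UMIs) and 13.2 CPM (94 UMIs), a log2 ratio of 0.71 (0.23 to 1.21). Kif21b stood at 5.61 CPM (42 UMIs) and 8.83 CPM (63 UMIs), a log2 ratio of 0.65 (0.07 to 1.25). Kif17 stood at 6.41 CPM (48 UMIs) and 3.36 CPM (24 UMIs), a log2 ratio of -0.92 (-1.70 to -0.20). With barcodes thinned to 1000 UMIs the direction turned for Kif3c (-0.36) and Kif17 (0.37). Kif17 was also under the ratio, with equal levels included, at clustering resolution 2 (-0.22, -1.15 to 0.68) and with cluster 0 added (-0.55, -1.26 to 0.10), and its interval included equal levels with at least 2000 UMIs per barcode (-1.93 to 0.16). Kif3c was under the ratio with at least 2000 UMIs per barcode (0.53) and at clustering resolution 2 (0.52), and Kif21b without doublet removal (0.44), with at most 10% mitochondrial UMIs (0.56) and with genes scaled within each library (0.54). The intervals of Klc3, Kif2c and Kif19a included equal levels.

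Kif15 was lower among the mitotic motors of macrophage-like barcodes, at 9.89 CPM (74 UMIs) against 5.19 CPM (37 UMIs), a log2 ratio of -0.92 (-1.54 to -0.34). The mitotic motors as a sum stood at 46.9 CPM (42.1 to 52.1) and 45.1 CPM (40.3 to 50.4), a log2 ratio of -0.05 (-0.28 to 0.17). With barcodes thinned to 1000 UMIs that ratio was -0.73. Of the 12 cell cycle genes, 0 were higher and 3 lower at a ratio of 1.5: Nusap1 (log2 ratio -0.68), Ccna2 (-0.75) and Cdc20 (-0.82). Marked barcodes made up 9.02% (7.28 to 11%) of WT and 4.67% (3.31 to 6.38%) of Kif13b-/- macrophage-like barcodes, at class median depths of 5781 and 3822.5 UMIs. Their part in the lower Kif15 was not tested. The thinned shares of barcodes with at least 2 markers were 6.38% and 3.00%, leaving out 56 and 91 shallower barcodes, against 14.3% and 8.84% unthinned.

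The transport motors of macrophage-like barcodes summed to 317 CPM (304 to 330) and 334 CPM (321 to 348), a log2 ratio of 0.08 (-0.0041 to 0.16). Kif5b had a log2 ratio of -0.11 and Klc1 of 0.14. Klc4 stood just under the ratio of 1.5, with a log2 ratio of 0.57 (0.26 to 0.89), and Kif3a at 0.39 (0.13 to 0.64). Kif2a lay just short of it on the lower side, at 61.3 CPM (459 UMIs) against 42.2 CPM (301 UMIs), a log2 ratio of -0.54 (-0.75 to -0.33). The macrophage-like class joined clusters 31 and 4. Cluster 31 held 635 of 965 WT but 352 of 792 Kif13b-/- barcodes, so the mix differed. In cluster 31 alone Klc4 had a log2 ratio of 0.81 (0.45 to 1.18), with 16.3 and 28.6 CPM, whereas in cluster 4 it was -0.36 (-1.05 to 0.33), with 35.6 and 27.8 CPM. In cluster 31 Kif3c had 0.81, Kif21b 0.68, Kif17 -0.85 and Kif15 -0.81, close to their values in the class. All 9 fibroblast markers and all 9 smooth muscle markers were detected in macrophage-like barcodes, with sums of 1715 and 2117 CPM and of 1069 and 1471 CPM. Their part in these ratios was not tested.

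The genes that work with these motors were read in macrophage-like barcodes against the same shares of all genes, 7.95% higher and 6.31% lower. Of 23 cargo adaptors and activators with 20 or more UMIs, 3 were higher, namely Borcs5 (log2 ratio 0.61), Fez1 (0.60) and Mapk8ip1 (0.81), and 1 was lower. The intervals of Fez1 and Mapk8ip1 included equal levels. That gene, named here after its values were seen, was Grip1, an adaptor for kinesin-1 cargo, with 27 and 2 UMIs. Kifap3, the non-motor subunit of kinesin-2, was level at 0.02. Of 23 dynein and dynactin genes, which serve transport in the opposite direction, 0 were higher and 0 lower. Of 22 intraflagellar transport and BBSome genes, 2 were higher, Ift27 (0.62) and Wdr19 (1.29), and 0 lower, while of 4 Hedgehog genes and of 4 motors outside the symbol rule (Kifc1, Kifc3, Kifc5b and Cenpe) 0 were higher or lower. The medians of the adaptor, dynein and intraflagellar lists were 0.04, 0.06 and 0.17, beside 0.03 over all genes tested.

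**Figure D3:**
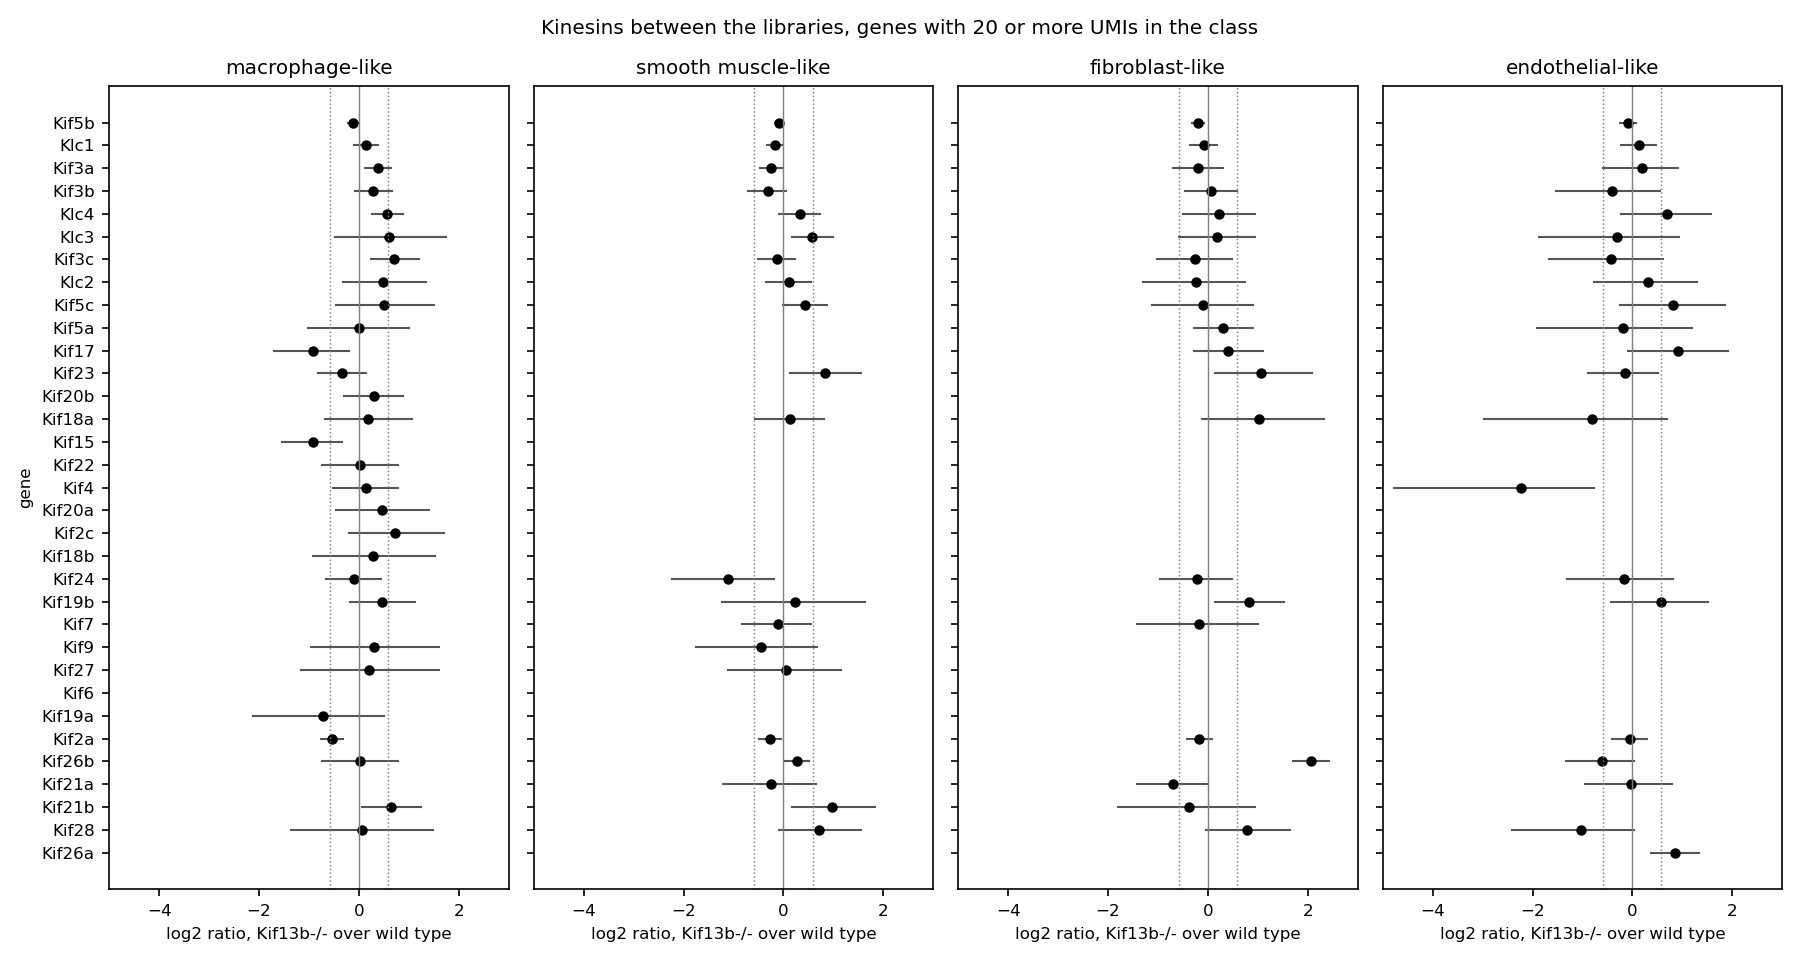
Points are log2 ratios of the Kif13b-/- over the WT library with 95% counting intervals for each kinesin with 20 or more UMIs, in 4 classes, with dotted lines at a ratio of 1.5 either way. Most points lie between the dotted lines, and Kif26b in fibroblast-like barcodes is the highest point at 2.06.

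Kif26b was past the ratio, with an interval that excluded equal levels, in 7 of the named classes and unnamed clusters. In fibroblast-like barcodes, 5 of 21 members were higher in the Kif13b-/- library (7.1% of all genes were) and 1 was lower (9.51% of all genes). Kif26b stood at 17.1 CPM (13.6 to 21.3, 82 UMIs) in the WT and 71.7 CPM (64.0 to 80.1, 312 UMIs) in the Kif13b-/- library, a log2 ratio of 2.06 (1.71 to 2.43). The UMIs were unevenly spread. In the Kif13b-/- library 84 of 706 barcodes held them, and the 10 barcodes with most held 172 of 312 (55.1%), against 31 of 82 (37.8%) in the WT library, where 59 of 1773 barcodes held them. These shares of barcodes, 3.33% and 11.9% at median depths of 1695 and 3234.5 UMIs, compare with 0.614% and 1.5% at 8550.5 and 11872 UMIs in cluster 28, taken as a background from free RNA. Thinned, they were 1.52% and 2.50% in fibroblast-like barcodes and 0% in cluster 28 in both libraries. Shallower classes and clusters held more Kif26b than the deep cluster 28. Cluster 1 (median depths 1354 and 2538.5 UMIs) held 20.4 and 54.3 CPM, and cluster 0 (1404 and 2496 UMIs) 21.7 and 20.4 CPM. T cell-like barcodes (1605 and 3475.5 UMIs) held 31.5 and 27.3 CPM. The part of free RNA in these levels and in those of fibroblast-like barcodes was not tested. Without the 10 barcodes with most in each library the fibroblast-like levels were 34.3 CPM in the Kif13b-/- and 10.9 CPM in the WT library. With every barcode thinned to 1000 UMIs they were, in the same order, 28.2 CPM (16.7 to 44.5) and 15.9 CPM (9.95 to 24.03), a log2 ratio of 0.83 (-0.16 to 1.79), and with classes drawn by marker score the log2 ratio was 0.79. The direction was kept in all of these, and the size was not. Both fibroblast-like clusters with barcodes in the 2 libraries showed it, cluster 3 at 9.0 against 38.2 CPM and cluster 19 at 18.5 against 81.3 CPM.

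In cluster 15 the log2 ratio of Kif26b was 1.35 (1.10 to 1.60), with 77.7 and 198 CPM, and 51.0 and 180 CPM after thinning. Kif26b UMIs were held by 110 of 1219 WT and 75 of 331 Kif13b-/- barcodes there. Other leading genes of the cluster were higher too, among them Hs6st2 (81.0 and 203 CPM), Thbs2 (50.8 and 187 CPM) and Mark1 (163 and 255 CPM). Angpt2 (85.2 and 79.6 CPM) and Thbs1 (1014 and 1001 CPM) were not. The part of the mix of barcodes in the Kif26b ratio was not tested. Kif26b was also higher in the Kif13b-/- library in adipocyte-like barcodes (7.92 against 55.9 CPM, 15 and 29 UMIs), Schwann or glia-like barcodes (14.6 against 42.3 CPM, 9 and 18 UMIs), cluster 1 (20.4 against 54.3 CPM) and cluster 8 (26.5 against 48.3 CPM). The direction was opposite in cluster 11, at 33.6 CPM (416 UMIs) against 22.1 CPM (52 UMIs), a log2 ratio of -0.59 (-1.05 to -0.19). Smooth muscle-like barcodes (25.4 and 30.8 CPM), cluster 18 (36.0 and 40.8 CPM) and macrophage-like barcodes (4.28 and 4.35 CPM) lay closer together. The level intervals of the 2 libraries did not overlap for Kif26b in clusters 1, 11, 15 and 26 or in fibroblast-like or adipocyte-like barcodes, and did so in cluster 8 and in Schwann or glia-like barcodes. In cluster 26 the log2 ratio was 0.46 (0.26 to 0.67), and without the 10 barcodes with most Kif26b UMIs in each library the levels there were 64.2 and 65.4 CPM.

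**Figure D4:**
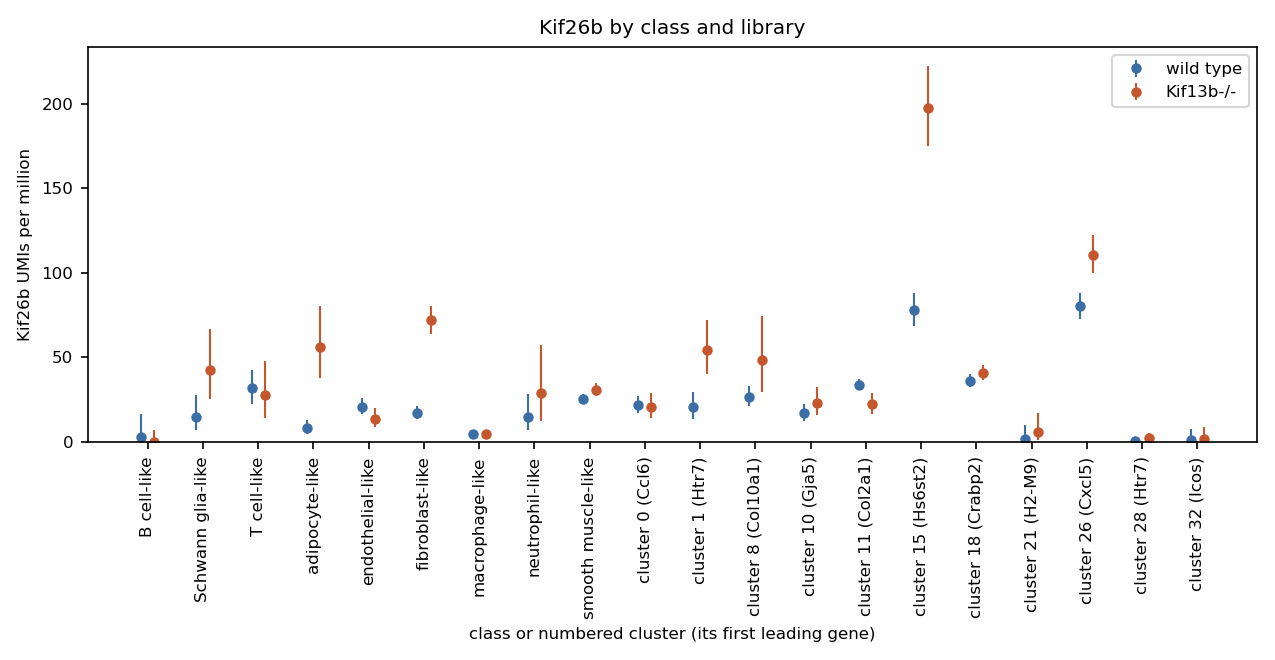
Points are Kif26b CPM in each class or cluster with at least 50 barcodes in both libraries, with 95% counting intervals, WT and Kif13b-/- side by side. Cluster 15 reaches 198 in the Kif13b-/- and 77.7 in the WT library, fibroblast-like barcodes 71.7 and 17.1, and cluster 11 is the reverse at 22.1 and 33.6.

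The other members of fibroblast-like barcodes past the ratio with an interval that excluded equal levels were Kif23 (3.13 against 6.67 CPM, log2 ratio 1.07, 0.14 to 2.09), Kif19b (6.48 against 11.5 CPM, 0.82, 0.15 to 1.52) and Kif21a (10.4 against 6.44 CPM, -0.69, -1.42 to -0.0035). Marked barcodes numbered 1 of 1773 in the WT and 20 of 706 in the Kif13b-/- library there, and 9 of the 10 cell cycle genes with 20 or more UMIs were higher. The part of these marked barcodes in Kif23 was not tested, and with thinning Kif23 turned to -0.26. Kif23 was also under the ratio with at most 10% mitochondrial UMIs (0.40), and its interval included equal levels without doublet removal (0.72) and with classes by marker score (0.69). The calls ended for Kif19b with at least 2000 UMIs per barcode (0.41, -0.30 to 1.16), and Kif21a with at most 10% mitochondrial UMIs (-0.56) and with classes by marker score (-0.27, -0.93 to 0.38). In smooth muscle-like barcodes, 3 of 21 members were higher (5.93% of all genes were) and 1 was lower (4.33% of all genes). Kif23 had a log2 ratio of 0.83 (0.13 to 1.55), which turned to -0.49 with thinning and was 0.09 with classes by marker score. Its interval also included equal levels without doublet removal (0.66) and with at most 10% mitochondrial UMIs (0.65). Kif21b had 0.98 (0.17 to 1.83, 23 and 32 UMIs) and Kif24 -1.11 (-2.22 to -0.18, 38 and 12 UMIs), and with classes by marker score the intervals of both included equal levels.

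In endothelial-like barcodes, 4 of 21 members were higher (8.88% of all genes were) and 4 were lower (10.9% of all genes). Kif26a had a log2 ratio of 0.86 (0.37 to 1.34). It was 0.37 (-0.19 to 0.92) with at least 2000 UMIs per barcode and 0.35 (-0.04 to 0.74) with classes by marker score, both under the ratio and with equal levels included. The 7 lymphatic endothelial markers summed to 787 and 72.4 CPM in this class and its own 9 markers to 3453 and 4257 CPM. Their part in the values of Kif26a and Kif4 was not tested. The log2 ratios of Kif26a within the 3 endothelial-like clusters were -0.72 (cluster 2, 19 and 3 UMIs), 0.37 (cluster 24) and 0.89 (cluster 27), each with an interval that included equal levels, and it was -0.21 in cluster 10. The barcodes of cluster 24, where Kif26a was highest, were 216 of 1208 in the WT and 75 of 290 in the Kif13b-/- library. Kif4 was lower at 8.65 CPM (34 UMIs) against 1.60 CPM (3 UMIs), a log2 ratio of -2.23 (-4.78 to -0.77), and 27 of the 34 WT UMIs were in cluster 2. With at most 10% mitochondrial UMIs its interval included equal levels (-1.77, -5.24 to 0.17). The cell cycle markers summed to 75.0 and 57.5 CPM there, and their part was not tested.

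Kif4 was also lower, past the ratio and with an interval that excluded equal levels, in T cell-like barcodes and in clusters 10 and 28. In T cell-like barcodes, 1 of 10 members was higher (12.6% of all genes were) and 3 were lower (21.5% of all genes). Kif4 had 27 UMIs (20.7 CPM) in 503 WT and 0 UMIs in 72 Kif13b-/- barcodes. A floor of 3 counts in the Kif13b-/- library lay 3.03-fold under the WT level. The interval of the log2 ratio, which also covers the counting error of the WT UMIs, reached up to -1.20. Kif15 had 30 and 1 UMIs (23.0 and 2.28 CPM). All 11 cell cycle genes with 20 or more UMIs in this class were lower too, with marked barcodes at 28 of 503 and 1 of 72. The 9 T cell markers summed to 1077 and 467 CPM in this class and the 9 fibroblast markers to 9730 and 15933 CPM. The part of either in the lower Kif4 and Kif15 was not tested. In cluster 10, 2 of 15 members were higher (7.76% of all genes were) and 2 were lower (9.67% of all genes). Kif4 had 20 UMIs (7.11 CPM) and 0 UMIs there, beside cell cycle markers at 169.7 and 34.8 CPM. The same floor lay 3.34-fold under the WT level of Kif4, and the interval of its log2 ratio reached up to -1.31. In cluster 28, 4 of 13 members were higher (11.9% of all genes were) and 3 were lower (6.68% of all genes). Kif4 had 22 and 2 UMIs (log2 ratio -2.82, -6.24 to -1.09), beside cell cycle markers at 145 and 122 CPM. Kif3c was higher at 1.44 (0.39 to 2.65) and Kif5c at 1.08 (0.35 to 1.87). In macrophage-like barcodes Kif4 was level, at 5.48 and 6.03 CPM.

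Members past the ratio were also found in the remaining classes. In Schwann or glia-like barcodes 1 of 6 members was higher (12.5% of all genes were) and 1 was lower (18% of all genes), the latter Kif21a at -0.86 (-1.54 to -0.26). The 9 markers of this class summed to 2530 and 1254 CPM there, while the 9 fibroblast markers summed to 5954 and 9632 CPM, and their part in the values of Kif21a and Kif26b was not tested. In adipocyte-like barcodes 1 of 7 was higher (10.5% of all genes) and 3 were lower (17.2% of all genes), among them Kif3a with 38 and 3 UMIs (-1.59, -4.14 to -0.14). In cluster 15, 5 of 15 were higher (7.51% of all genes) and 0 were lower (10.4% of all genes), among them Kif3a at 29.6 against 46.3 CPM (0.65, 0.17 to 1.11). In cluster 11, 3 of 22 were higher and 3 lower (10.4% of all genes in each direction), with Kif3b at 0.69 (0.16 to 1.18) and Klc4 at 1.09 (0.38 to 1.72). In cluster 0, shallow barcodes led by Ccl6, Il1a, Ccl3 and Tnf that carried macrophage markers, 5 of 14 were higher (7.06% of all genes) and 1 was lower (8.32% of all genes). All 5 were transport members, as were 10 of the 14 members with 20 or more UMIs there. Klc4 at 0.76 (0.01 to 1.49) and Kif5c at 1.15 (0.07 to 2.23) excluded equal levels, while the intervals of Kif3b, Klc3 and Klc2 included them. The lower gene was Kif2a at -0.84 (-1.30 to -0.42). Kif2a was also lower and Klc4 higher in the macrophage-like class, where both fell short of the ratio and Klc4 had the other direction in cluster 4. The directions were not particular to these barcodes. Over all barcodes the log2 ratio was -0.34 for Kif2a and 0.54 for Klc4. In cluster 18, 0 of 25 were higher (4.78% of all genes) and 4 were lower (5.68% of all genes), with Kif5a at -0.59 (-1.17 to -0.04) and Kif22 at -1.12 (-2.19 to -0.20). In cluster 1, 1 of 7 was higher (8.34% of all genes) and 1 lower (14.3% of all genes). In cluster 8, 2 of 13 were higher (14.9% of all genes) and 3 lower (20.5% of all genes). Kif26b was the only member of these last 2 clusters past the ratio with an interval that excluded equal levels. In B cell-like and neutrophil-like barcodes and in clusters 21, 26 and 32, no member with 20 or more UMIs met both conditions.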

How the data were processed

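The deposited values are raw UMI counts per gene and barcode, 1 matrix per library, made by the authors with Cell Ranger 8.0.1 per the file headers on the mm10 genome (named in the submitters' processing notes); libraries were made with 10x 3' v3.1 chemistry per the labels. Neither the annotation nor the treatment of intronic reads is given in the sources used here. No sample column was left unused (0 columns).

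Filters required 500 UMIs, 300 genes and no more than 20% mitochondrial UMIs per barcode (19832 and 7315 passed). The automatic Scrublet threshold marked 0 barcodes, so the 3146 and 428 with the highest scores were removed (0.8% per 1000 barcodes). Clustering with scanpy 1.11.5 (10000 counts per barcode, 2000 variable genes with kinesins left out, 30 components, 15 neighbours, Leiden resolution 1) gave 36 clusters. A cluster of at least 30 barcodes was named where at least 3 markers, and at least 50% of them or 3 among its top 10 genes, were raised 2-fold and detected in 10% of barcodes, with a mean log2 fold 1 above the next class and no lead by another class. These naming rules were set after the clusters were seen. Unnamed clusters keep their numbers.

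UMIs were summed per class and library. A prior count of 0.5 entered each log2 ratio. The 95% intervals are exact Poisson for levels, conditional binomial for ratios and Clopper-Pearson for shares. Zero counts were bounded by a floor of 3 counts. A member is called higher or lower at a ratio of 1.5 with 20 or more UMIs in the class, read beside the share of all genes past it. Every member is named. Ratios per class are given where the interval excludes equal levels, and from other lists up to 3 genes past the ratio, those with the most UMIs first. The interval procedure was tested on simulated data. No p-values were computed. Promoter windows came from RefSeq (GRCm38.p6), the first listed per gene. The last 20 bases were found in a GENCODE M21 transcript of the gene for 24 of 27 members. Members without a window (9) are named only. Members, roles and gene lists were chosen with earlier results of these data known.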

Additional observations from a re-analysis of the deposited data

Results flagged for a closer look

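In 2 genes, classes moved past the ratio of 1.5 in opposite directions between the libraries, with intervals that excluded equal levels. Moves short of that ratio were not searched. Kif5b had such moves, with log2 ratios of 0.25 (0.06 to 0.43) in cluster 28 and -0.36 (-0.55 to -0.17) in cluster 0. Kif26b was higher in the Kif13b-/- library in adipocyte-like (log2 ratio 2.796), fibroblast-like (2.059), Schwann or glia-like (1.498) barcodes and in clusters 1 (1.399), 15 (1.346) and 8 (0.894), and lower in cluster 11 (-0.594). Kif3a was lower in adipocyte-like barcodes (-1.592, 38 and 3 UMIs) and higher in cluster 15 (0.648). With 1 library per genotype the difference between classes was not tested.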

How the results depend on the processing

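No paired analysis was possible because each genotype has 1 library, and no replicate could be left out for the same reason. Thinning every barcode to 1000 UMIs moved most values. In macrophage-like barcodes it left 1 higher and 1 lower member, a mitotic sum of -0.73 and a transport sum of -0.012, and turned Kif3c to -0.36 and Kif17 to 0.37. It also turned Kif23 to -0.26 in fibroblast-like and to -0.49 in smooth muscle-like barcodes, and gave log2 ratios of the mitotic motors in marked barcodes of 4.39 (wild type) and 5.51 (Kif13b-/-). Thinning leaves few UMIs per gene, and the cause was not tested further. In macrophage-like barcodes, 50 UMIs per gene left 2 higher members, a ratio of 2 left 0 higher and 0 lower (fewer can pass), genes scaled within each library left 1 lower, and classes by marker score gave a transport sum of -0.042. For the mitotic motors in marked barcodes, 2 markers gave 3.84 and 2.79 and 5 markers 5.00 and 4.74. In the wild-type library no doublet removal gave 4.49 and 2000 UMIs per barcode 4.75. In the Kif13b-/- library leaving out cluster 34 gave 4.08. This setting, cluster 31 alone and the macrophage-like class with cluster 0 were chosen after seeing the data. The mitotic ratio in marked barcodes was positive in all 6 settings run for each library. Kif15 (-1.03 to -0.36), Kif2a (-0.89 to -0.46), Klc4 (0.28 to 0.81), Kif21b (0.44 to 1.27) and Kif3a (0.24 to 0.71) kept their direction in all 10 settings in macrophage-like barcodes, as did Kif26b (0.79 to 2.08) in fibroblast-like, Kif26a (0.35 to 1.17) and Kif4 (-3.46 to -0.86) in endothelial-like barcodes in all 8. Kept direction does not mean a kept call: thinning widened every one of these single-gene intervals, and the calls of Kif26a, Kif17, Kif3c, Kif21b, Kif23, Kif19b and Kif21a that ended elsewhere stand beside their values.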
